A study of Mus musculus with 6 samples.

Results

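The genes described here encode the proteasome, the protease complex that degrades ubiquitin-tagged proteins in the cytosol and nucleus. They were taken as every gene of the deposited table whose symbol is Psma, Psmb, Psmc, Psmd or Psme followed by a number, which gave 43 of 34724 genes. RNA molecules from 2 mouse cell lines were sequenced directly, without conversion to cDNA, per the kit named in the labels' protocols. A nanopore instrument was used, with 3 libraries per line. The sample descriptions say Iso-Seq instead. Cells of the line 2H-11, called tumor endothelial in the labels, were compared with cells of the line SVEC4-10, called normal endothelial. Per the labels, both lines were transformed with SV40 and derive from axillary lymph node endothelium of adult C3H/HeJ mice, and no treatment is given for either. Each status is represented by a single line, so tumor origin and the identity of the line cannot be told apart. Nothing in the labels places the libraries of a line in separate cultures, so p-values measure the spread between libraries, which may be technical. In bulk RNA, fewer cells of a type and less RNA per cell cannot be told apart.

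The proteasome core is a barrel of 4 rings, built from alpha subunits (Psma) on the outside and beta subunits (Psmb) on the inside. Among the beta subunits, Psmb6, Psmb7 and Psmb5 carry the beta1, beta2 and beta5 protease activities. Interferon induces replacements for them, Psmb9, Psmb10 and Psmb8, which form the immunoproteasome and alter the peptides cut for display on MHC class I molecules. The 19S cap, made of ATPases (Psmc) and non-ATPases (Psmd), recognises and unfolds ubiquitin-tagged substrates. Psme1 and Psme2 together form the interferon-inducible activator PA28, which opens the core without ubiquitin, while Psme3 forms a nuclear activator and Psme4 encodes PA200.

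Library totals ran from 3628400 to 16798666 counts, the largest being 4.63 times the smallest. Levels below are scaled CPM, the CPM of a library whose size was scaled by TMM (trimmed mean of M-values, with factors of 0.917 to 1.05), given by library or as mean ± SD over 3 libraries of a line. Of 12 endothelial markers 6 were at 0 in all libraries (Tie1, Vwf, Erg, Emcn, Cldn5 and Icam2), and Egfl7 and Eng alone had enough counts for a test. The summed level of the endothelial markers was 11.7 to 19.3 scaled CPM in 2H-11 and 2.77 to 4.53 scaled CPM in SVEC4-10. Most of that sum came from Eng and Egfl7. Eng averaged 9.42 scaled CPM in 2H-11 and 2.57 in SVEC4-10, and Egfl7 averaged 5.28 and 0.823. The other 10 of the 12 markers were under 1 scaled CPM in all libraries of both lines. Leukocytes carry immunoproteasomes at rest, so 12 of their markers were also read. Of these 5 were at 0 in all libraries (among them Cd3e, Itgam and Adgre1), and Ptprc, the pan-leukocyte antigen CD45, had no count in 2H-11 and 2 counts over the libraries of SVEC4-10. The summed level of the leukocyte markers was 7.83 to 9.85 scaled CPM in 2H-11 and 3.85 to 10.3 scaled CPM in SVEC4-10, and the lines overlapped through SVEC4-10 replicate 2 alone. Of the 2 leukocyte markers tested, Cd68 was not called (adjusted p = 0.73), and Coro1a, which encodes an actin-binding protein, was higher in 2H-11. Coro1a averaged 3.47 ± 0.366 scaled CPM in 2H-11 and 0.281 ± 0.044 scaled CPM in SVEC4-10 without overlap (adjusted p = 1.47e-05). The part of such cells in the results was not tested.

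Transcripts of 4 of the 5 interferon-inducible subunits were lower in 2H-11, whereas most constitutive subunits did not pass the threshold. Of 43 members 41 had enough counts for the test, and of these 7 were lower and 1 was higher in 2H-11 (an adjusted p under 0.05 in edgeR's quasi-likelihood test with Benjamini-Hochberg adjustment over 13187 genes). Among all genes tested, 16.2% were lower and 20.1% were higher by the same rule. In this fit the share of members called lower was thus close to that of all genes, and the share called higher was below it, at 2.44%. The inducible members Psmb8, Psmb9, Psmb10, Psme1 and Psme2 accounted for 4 of the 7 lower calls. Of the 36 constitutive members tested, 3 were lower, 1 was higher and 32 were not called. Their median log2 fold change was 0.04, against 0.0025 over all genes and -1.58 over the 5 inducible members. Their median count per library was 2246, against 90 over all genes tested. DESeq2 called 1 member higher and 8 lower, where 12.7% and 10.9% of 21277 genes were. That gene set was wider than the 13187 genes of edgeR, and there the share of members called lower was above that of all genes.

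**Figure D1:**
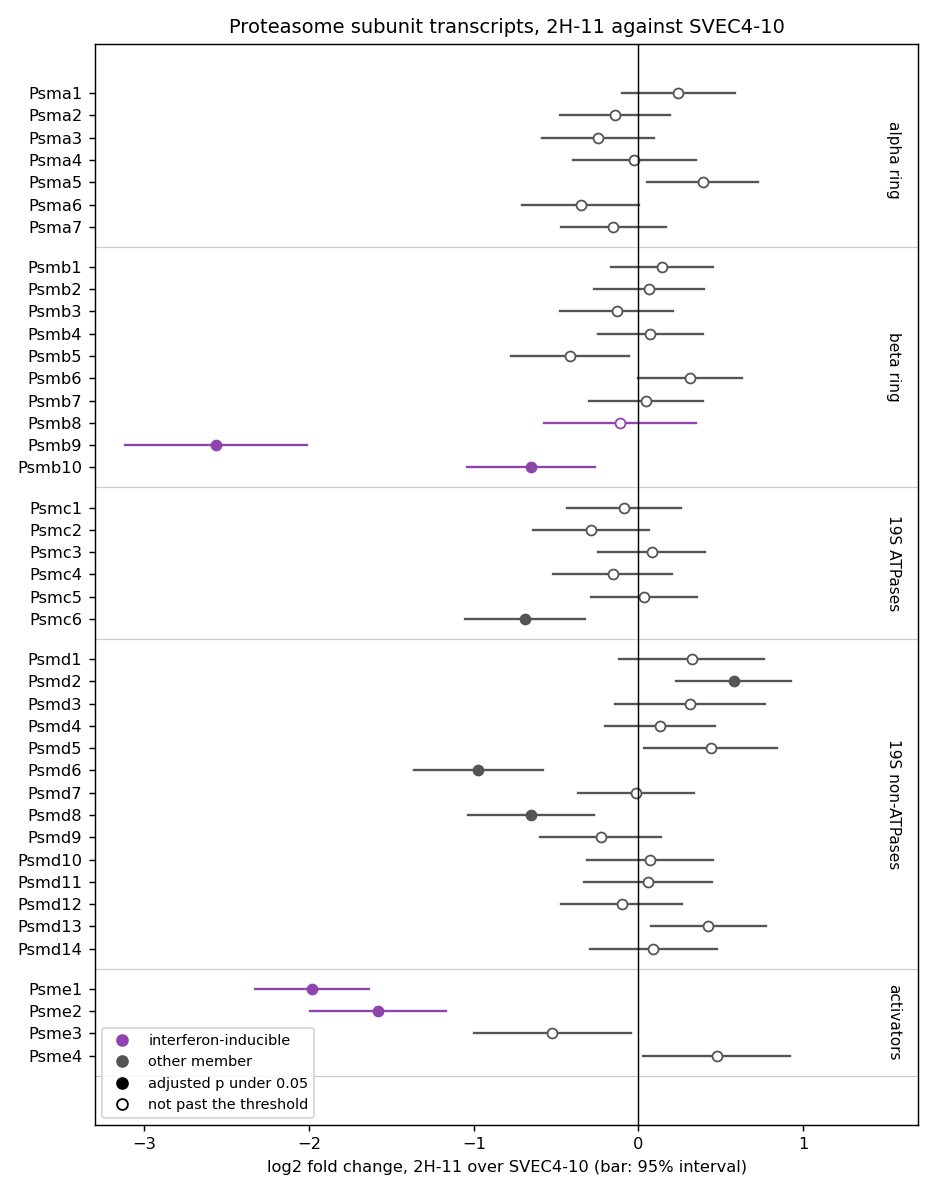
Log2 fold change (2H-11 over SVEC4-10) of the 41 proteasome members tested, with bars for the 95% interval, by subcomplex. Filled points passed an adjusted p of 0.05; 4 of the 5 inducible members (purple) lie to the left of 0, from -2.57 to -0.65, while Psmb8 spans 0 and 32 of 36 other members are open.

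Of the 3 inducible catalytic subunits, Psmb9 and Psmb10 were lower in 2H-11. Psmb9, the inducible beta1 subunit (ENSMUSG00000096727, chromosome 17, 34181987 to 34187764 in GRCm38), had 5.87, 3.76 and 5.53 scaled CPM in the libraries of 2H-11, against 33.9, 32.3 and 25.5 scaled CPM in those of SVEC4-10. All libraries of 2H-11 lay below all libraries of SVEC4-10. It was 5.92-fold lower in 2H-11 (log2 fold change -2.57, SE 0.26, adjusted p = 3.82e-07), and the value rested on few reads in 2H-11, with 33, 16 and 32 counts. Psmb10, the inducible beta2 subunit (ENSMUSG00000031897, chromosome 8, 105935735 to 105938444), had 49.5, 47.7 and 56.3 scaled CPM in 2H-11 and 70.6, 87.3 and 83.5 scaled CPM in SVEC4-10. The lines again did not overlap, and Psmb10 was 1.57-fold lower (log2 fold change -0.65, SE 0.19, adjusted p = 0.00999). The call for Psmb10 was lost without 2H-11 replicate 2 (adjusted p = 0.0622), with the direction kept.

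Psmb8, the inducible beta5 subunit (ENSMUSG00000024338, chromosome 17, 34197721 to 34201454), did not pass the threshold. It had 24.5, 19.03 and 18.8 scaled CPM in 2H-11 and 20.8, 22.7 and 23.9 scaled CPM in SVEC4-10, and the highest of the 6 libraries was one of 2H-11. Its log2 fold change was -0.11 (95% interval -0.57 to 0.35, adjusted p = 0.734). The interval of Psmb9 was -3.12 to -2.01, and the 2 intervals did not overlap. The ratio of Psmb9 to Psmb8 counts within a library was tested after this contrast had been seen. In this and the later ratios of 1 gene to another, 0.5 was added to each count. Psmb9 counts were 24.2%, 20.2% and 29.7% of Psmb8 counts in 2H-11, and 163%, 142% and 107% in SVEC4-10. The ratio was lower in every library of 2H-11 than in any of SVEC4-10, with a log2 difference of -2.47.

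**Figure D2:**
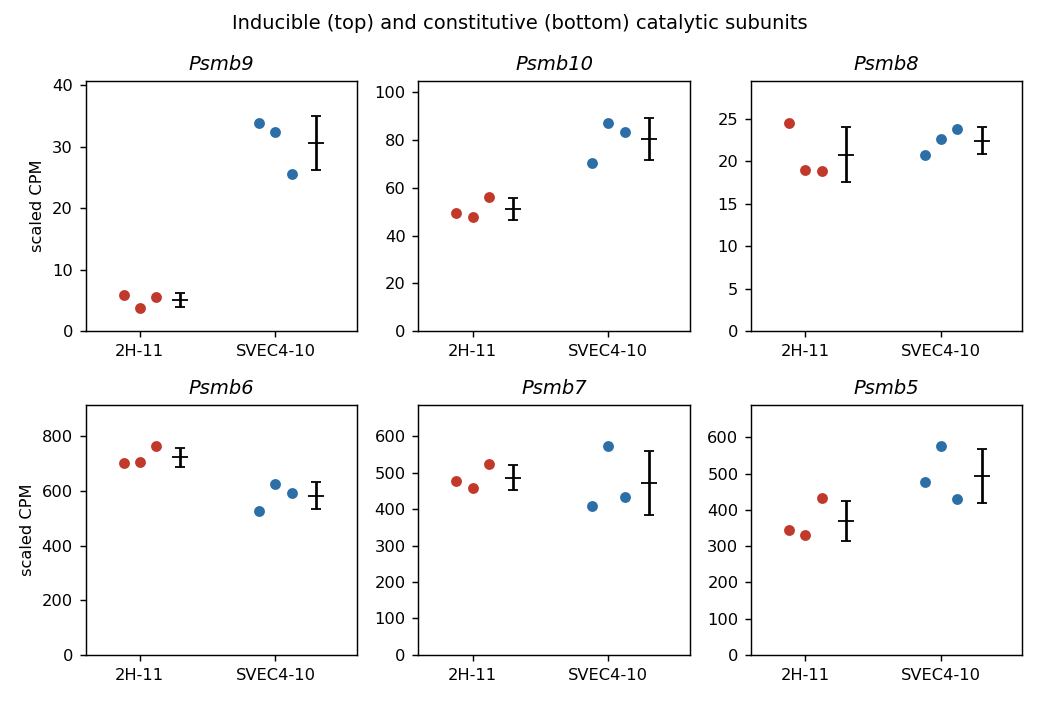
Scaled CPM of the inducible catalytic subunits Psmb9, Psmb10 and Psmb8 (top) and of their constitutive counterparts Psmb6, Psmb7 and Psmb5 (bottom); each point is a library, and bars give the mean ± SD of a line (n = 3). Psmb9 and Psmb10 separate the lines with 2H-11 below, Psmb6 separates them with 2H-11 above, and the other genes overlap.

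None of their constitutive counterparts was called in edgeR. Psmb6, which carries the beta1 activity, had 700.3, 707 and 763 scaled CPM in 2H-11 and 528, 624 and 594 scaled CPM in SVEC4-10. All libraries of 2H-11 were above those of SVEC4-10, yet the log2 fold change of 0.31 did not pass (95% interval -0.0021 to 0.63, adjusted p = 0.115). Psmb7, with the beta2 activity, averaged 487 ± 34.5 scaled CPM in 2H-11 and 472 ± 87.8 scaled CPM in SVEC4-10 (log2 fold change 0.05, 95% interval -0.30 to 0.39, adjusted p = 0.861). Psmb5, with the beta5 activity, averaged 370 ± 55.8 scaled CPM in 2H-11 and 493 ± 74.4 scaled CPM in SVEC4-10. The lines overlapped for Psmb5, and its log2 fold change of -0.42 lay just outside the threshold (95% interval -0.77 to -0.06, adjusted p = 0.0645). It passed in 5 of 14 alternative fits, among them DESeq2 (adjusted p = 0.0446) and the fit without 2H-11 replicate 3 (0.0224).

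Pairing each inducible subunit with its counterpart in the same library removes library scaling from the difference between the lines. The percentages at the 3 positions are of counts with 0.5 added. At the beta1 position, Psmb9 counts were 0.851%, 0.548% and 0.736% of Psmb6 counts in 2H-11, against 6.44%, 5.21% and 4.31% in SVEC4-10. The ratio was 7.49-fold lower in 2H-11 (log2 difference -2.91), and the lines did not overlap. At the beta2 position, Psmb10 counts were 10.4%, 10.5% and 10.8% of Psmb7 counts in 2H-11, against 17.3%, 15.3% and 19.2% in SVEC4-10, a 1.63-fold lower ratio in 2H-11 without overlap. At the beta5 position, Psmb8 counts were 7.13%, 5.8% and 4.36% of Psmb5 counts in 2H-11, against 4.38%, 3.97% and 5.57% in SVEC4-10. There the libraries of the lines were mixed, and the mean log2 ratio was 0.30 higher in 2H-11. That value was 0.13 without 2H-11 replicate 1, 0.49 without 2H-11 replicate 3 and 0.19 without SVEC4-10 replicate 2. Exact two-sided permutation tests gave p = 0.1 for beta1, beta2 and the ratio of Psmb9 to Psmb8, and p = 0.3 for beta5. With 3 libraries against 3, 0.1 is the smallest p possible, and adjusted over the 5 ratios examined these values became 0.125 and 0.3. Together the inducible subunits made up 4.65 ± 0.281% of the counts of the 6 catalytic genes in 2H-11 and 7.98 ± 0.479% in SVEC4-10.

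**Figure D3:**
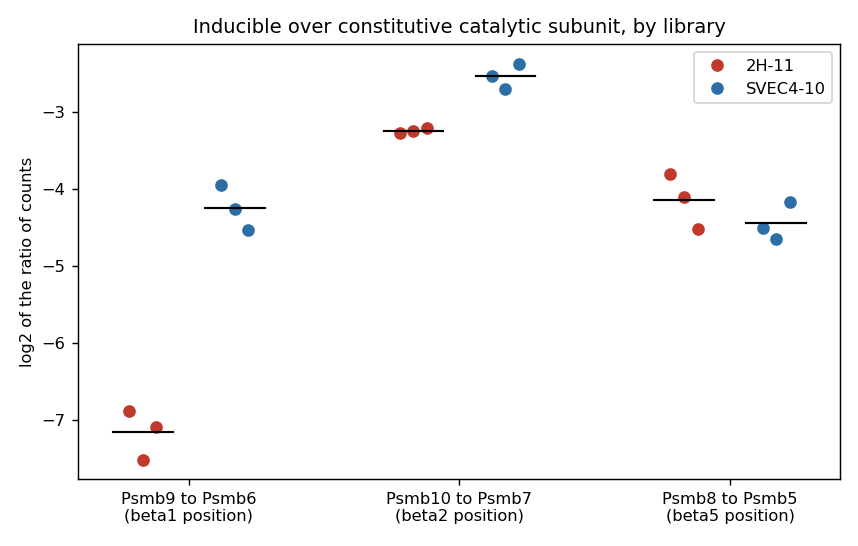
Log2 of the ratio of counts of each inducible catalytic subunit to its constitutive counterpart, one point per library and a line at the mean of each cell line. For beta1 (Psmb9 to Psmb6) and beta2 (Psmb10 to Psmb7) the libraries of 2H-11 lie below those of SVEC4-10, with mean differences of -2.91 and -0.71, and for beta5 (Psmb8 to Psmb5) they are mixed.

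Both genes of the inducible activator were lower in 2H-11. Psme1, the alpha subunit of PA28 (ENSMUSG00000022216, chromosome 14, 55578123 to 55581529), had 78.1, 75.4 and 77.6 scaled CPM in 2H-11, against 292, 327 and 295 scaled CPM in SVEC4-10. Psme2, the beta subunit (ENSMUSG00000079197, chromosome 14, 55587441 to 55591113), had 28.3, 37.4 and 37.3 scaled CPM in 2H-11, against 92.5, 116 and 99.7 scaled CPM in SVEC4-10. Neither gene overlapped between the lines, and the log2 fold changes were -1.98 for Psme1 (SE 0.17, adjusted p = 2.58e-08) and -1.58 for Psme2 (SE 0.20, adjusted p = 3.93e-06). Psme2 has an intronless relative, Psme2b, which had no count in 2H-11 and 2 counts in SVEC4-10. The other activators were not called. Psme3 had 30.1, 25.4 and 47.0 scaled CPM in 2H-11 and 50.5, 46.2 and 50.7 scaled CPM in SVEC4-10, so that a single library of 2H-11 reached the level of SVEC4-10. Its log2 fold change was -0.52 (95% interval -0.999 to -0.05, adjusted p = 0.082), and without that library, 2H-11 replicate 3, it was -0.83 and passed (adjusted p = 0.005). It also passed without a filter on low counts (adjusted p = 0.033). Psme4 averaged 25.5 ± 1.71 scaled CPM in 2H-11 and 18.3 ± 1.69 scaled CPM in SVEC4-10, with 2H-11 above in every library (log2 fold change 0.47, 95% interval 0.03 to 0.92, adjusted p = 0.0929). It passed with library size alone as the scaling (adjusted p = 0.0466) and on Ensembl genes alone (0.0396).

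**Figure D4:**
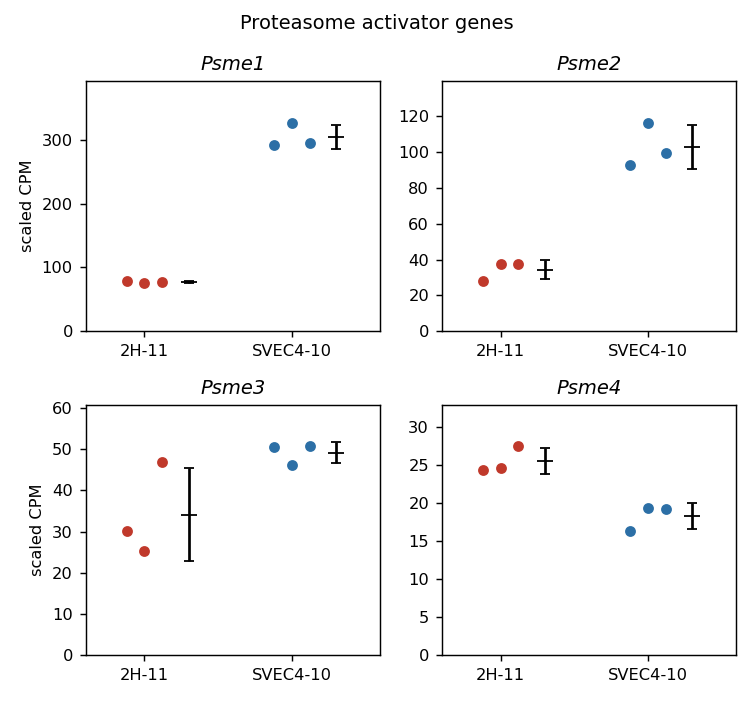
Scaled CPM of the 4 activator genes, one point per library with the mean ± SD of each line (n = 3). Psme1 and Psme2 lie far lower in 2H-11 (77.0 and 34.3 scaled CPM on average) than in SVEC4-10 (305 and 103 scaled CPM), whereas Psme3 overlaps and Psme4 is higher in all libraries of 2H-11.

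The ratio of Psme1 to Psme3 counts, also chosen after the values were seen, was 259%, 296% and 165% in 2H-11 and 577%, 705% and 582% in SVEC4-10. It was lower in 2H-11 without overlap (log2 difference -1.41, exact permutation p = 0.1, adjusted p = 0.125 over the 5 ratios). Psme1 and Psme2 together held 65.4 ± 4.35% of the counts of the activator genes in 2H-11 and 85.7 ± 1.19% in SVEC4-10. The summed level of the 5 inducible members was 188 ± 6.41 scaled CPM in 2H-11 and 541 ± 39.6 scaled CPM in SVEC4-10. Most of that sum came from Psme1 and Psme2. Psmb8, Psmb9 and Psmb10 together had 77.0 ± 5.66 scaled CPM in 2H-11 and 133 ± 8.54 scaled CPM in SVEC4-10.

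The inducible members lie in 3 places of the genome. In the MHC region of chromosome 17, Psmb9 and Psmb8 flank Tap1, a subunit of the transporter that carries peptides to class I molecules, and Tap2, the partner subunit, follows Psmb8 2072 bases on (GENCODE M21, GRCm38). Psmb9 and Tap1 are transcribed away from each other and share 212 annotated bases. Psme1 and Psme2 face each other on chromosome 14, 5911 bases apart, and Psmb10 stands alone on chromosome 8. Of the neighbours on chromosome 17, Tap1 was 3.43-fold lower, at 4.12 ± 0.733 scaled CPM in 2H-11 and 14.2 ± 0.699 scaled CPM in SVEC4-10 (adjusted p = 6.76e-05). Tap2 was not called, at 8.92 ± 3.48 scaled CPM in 2H-11 and 11.1 ± 3.13 scaled CPM in SVEC4-10 (adjusted p = 0.49). Along chromosome 17 the order was thus Psmb9 and Tap1, both lower, then Psmb8 and Tap2, both uncalled; the difference between these pairs of neighbours was tested only as the ratio of Psmb9 to Psmb8. Of all 43 members 12 share exonic bases with another annotated gene, including, on the opposite strand, Psmb9 with Tap1, Psmb8 with Gm20496 and Psme1 with Emc9. Tap2 shares such bases with Gm15821 and Gm20496, also on the opposite strand. Whether the authors' counting used strand is not given in the sources used here, so such reads could be assigned to either gene.

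Promoter windows are shown for Psmb9 and Psme1, the lowest inducible members by fold change in the core and the activators, and for Psmb8, the inducible member that was not called. Each window covers 250 bases before and 50 after the RefSeq gene start in GRCm38.p6, read 5′ to 3′ on the gene's strand. Capitals mark a match to a motif on either strand, namely the NF-Y box CCAAT in Psmb9, the gamma-activated site TTCNNNGAA in Psmb8 and the interferon-stimulated response element in Psme1, searched as GAAA, any 2 bases and GAAA. The windows are chr17:34187281-34187580 on the minus strand for Psmb9, chr17:34197945-34198244 on the plus strand for Psmb8 and chr14:55578244-55578543 on the plus strand for Psme1. Each of these windows lies inside the GENCODE span given above for its gene. Bases upstream of the GENCODE starts of these genes were therefore not searched.
Psmb9: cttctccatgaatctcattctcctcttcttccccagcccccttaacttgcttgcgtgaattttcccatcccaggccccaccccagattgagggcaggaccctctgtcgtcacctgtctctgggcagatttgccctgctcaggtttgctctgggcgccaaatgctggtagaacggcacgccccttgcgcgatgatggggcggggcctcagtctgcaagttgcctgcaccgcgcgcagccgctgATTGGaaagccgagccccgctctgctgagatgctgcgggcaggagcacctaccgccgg
Psmb8: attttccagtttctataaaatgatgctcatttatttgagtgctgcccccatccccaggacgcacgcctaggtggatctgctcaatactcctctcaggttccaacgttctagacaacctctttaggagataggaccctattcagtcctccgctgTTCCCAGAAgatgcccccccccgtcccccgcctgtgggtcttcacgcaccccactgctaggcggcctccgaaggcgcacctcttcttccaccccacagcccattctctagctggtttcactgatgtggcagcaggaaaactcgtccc
Psme1: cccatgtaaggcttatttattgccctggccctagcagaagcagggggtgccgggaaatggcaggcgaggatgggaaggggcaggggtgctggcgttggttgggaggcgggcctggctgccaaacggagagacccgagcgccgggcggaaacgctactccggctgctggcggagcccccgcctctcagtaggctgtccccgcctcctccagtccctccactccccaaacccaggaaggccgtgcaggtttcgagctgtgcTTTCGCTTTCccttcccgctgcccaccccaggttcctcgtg
The Psmb9 window shares 275 of its bases with the window of Tap1 on the other strand. The match in Psme1 begins at base 260 of the window, and that in Psmb8 begins at base 154. Windows were found for 36 of the 43 members, including all 5 inducible ones. The interferon-stimulated response element occurred in 4 of the 36, namely Psme1, Psmb3, Psmd4 and Psmd9, and in 3.44% of 32851 windows of all genes. TTCNNNGAA occurred in Psmb8 and Psmd2, and in 8.30% of all windows. Psmb9, Psmb10 and Psme2 held neither of these letter patterns in these windows. The core of the antioxidant response element, TGANNNNGC, bound by factors that raise proteasome genes when proteasome activity is blocked, occurred in 21 of 36 members and in 41.3% of all windows. CCAAT occurred in 14 of 36 members and in 37.4% of all windows. A match describes letters only.

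The constitutive core held no call in the edgeR fit, where 36.2% of all genes were called in either direction. None of the alpha subunits Psma1 to Psma7 and none of the beta subunits Psmb1 to Psmb7 was called, with unadjusted p under 0.05 for 2 of these 14. DESeq2 called 1 of the 14, Psmb5. Their log2 fold changes ran from -0.42 for Psmb5 to 0.39 for Psma5, with a median of 0.010. In the alpha ring the extremes were Psma6, at 245 ± 12.6 scaled CPM in 2H-11 and 313 ± 56.5 scaled CPM in SVEC4-10 (log2 fold change -0.35, adjusted p = 0.115), and Psma5. Without SVEC4-10 replicate 1 Psma6 passed (log2 fold change -0.50, adjusted p = 0.0341). Psma5 stood at 566 ± 38.3 scaled CPM in 2H-11 and 432 ± 64.0 scaled CPM in SVEC4-10 (log2 fold change 0.39, adjusted p = 0.0668), with 2H-11 above in all libraries. Psma5 passed in 4 of 14 alternatives, with adjusted p between 0.0114 and 0.0493, and its log2 fold change was 0.23 without SVEC4-10 replicate 1 (adjusted p = 0.31). In the beta ring the extremes were Psmb5 and Psmb6, described above. All 14 log2 fold changes were within 0.5 of 0, which held for 50.8% of all genes tested. The 2 shares are not matched for depth, as the core genes had a median of 3894 counts per library, against 90 over all genes tested.

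Of the 20 genes of the 19S cap and its assembly, 3 were lower and 1 was higher in 2H-11. These were 15% and 5% of the cap genes, against 16.2% lower and 20.1% higher among all genes, so neither share was above that of all genes. Psmd6, a subunit of the cap's lid (ENSMUSG00000021737, chromosome 14, 14112174 to 14120984), had 156, 151 and 135 scaled CPM in 2H-11 and 224, 366 and 280 scaled CPM in SVEC4-10. It was 1.96-fold lower in 2H-11 (log2 fold change -0.97, SE 0.19, adjusted p = 0.000438). Psmc6, an ATPase of the cap's base (ENSMUSG00000021832, chromosome 14, 45329788 to 45349705), had 313, 297 and 253 scaled CPM in 2H-11 and 383, 563 and 443 scaled CPM in SVEC4-10. It was 1.61-fold lower in 2H-11 (log2 fold change -0.69, SE 0.17, adjusted p = 0.00434). In both genes the lines did not overlap. Psmd8, another lid subunit (ENSMUSG00000030591, chromosome 7, 29174188 to 29180701), had 221, 213 and 239 scaled CPM in 2H-11 and 269.6, 437 and 353 scaled CPM in SVEC4-10. It was 1.57-fold lower in 2H-11 (log2 fold change -0.65, SE 0.18, adjusted p = 0.00832). For these 3 genes no library of 2H-11 reached the lowest of SVEC4-10, and SVEC4-10 replicate 2 was the highest each time. All 3 calls held without that library and under each of the other alternatives.

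Psmd2, a large scaffold subunit of the base that docks ubiquitin receptors (ENSMUSG00000006998, chromosome 16, 20651652 to 20663414), was higher in 2H-11. It had 294, 255 and 230 scaled CPM in 2H-11 and 176, 160 and 185 scaled CPM in SVEC4-10, with no overlap. The fold was 1.49 (log2 fold change 0.58, SE 0.17, adjusted p = 0.0102). The call was lost without 2H-11 replicate 1 (adjusted p = 0.06) and without SVEC4-10 replicate 2 (adjusted p = 0.0581), so that no member was higher without 2H-11 replicate 1. Among the ATPases the other extreme was Psmc3, at 370 ± 13.7 scaled CPM in 2H-11 and 350 ± 35.7 scaled CPM in SVEC4-10 (log2 fold change 0.08, adjusted p = 0.73). Psmd13, a lid subunit, and Psmd5, a chaperone of cap assembly, were above SVEC4-10 in all libraries of 2H-11 without passing (adjusted p = 0.0539 and 0.0837). With library size alone as the scaling, 6 members were higher and 7 lower, where 22.3% and 13.2% of all genes were. The 6 were Psmd2, Psma5, Psmb6, Psmd5, Psmd13 and Psme4, so the number of higher members depends on the scaling, while the 7 lower members were the same genes. On Ensembl genes alone the same 6 were higher and the same 7 lower, where 16.3% and 16.0% of those genes were.

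**Figure D5:**
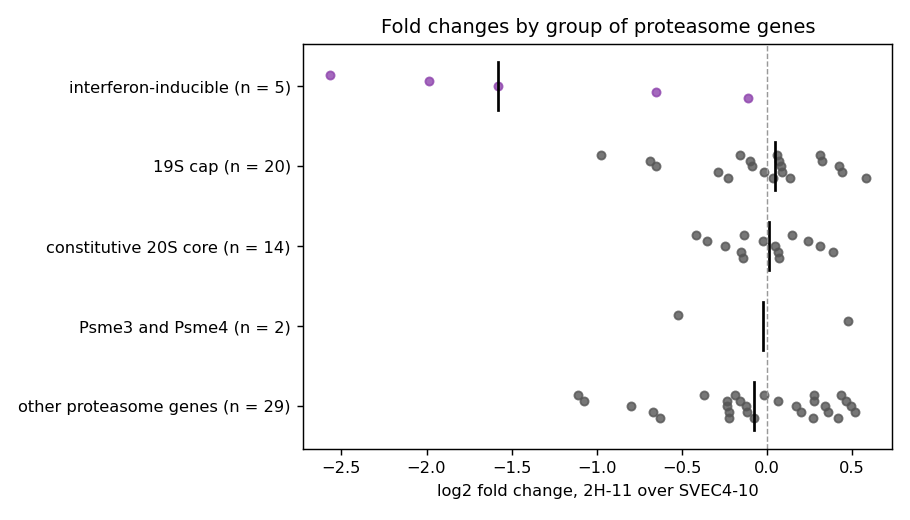
Log2 fold changes (2H-11 over SVEC4-10) of single genes by group, with a black bar at each group's median and a dashed line at the median of all genes tested. The inducible group has its median at -1.58, the 19S cap at 0.05, the constitutive core at 0.010 and the other proteasome genes at -0.08.

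Tissue-restricted members were at or near 0. Psma8, the alpha subunit of the testis proteasome, had no count in any library, which allows up to 0.196 CPM over the 2H-11 libraries and 0.121 CPM over those of SVEC4-10 (3 counts over the summed totals, for counting error only). Psmb11, the beta5 subunit of the thymic cortex, had 1 count, in 2H-11 replicate 1, and none in SVEC4-10.

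As a complex, the constitutive members summed to 14029 ± 189 scaled CPM in 2H-11 and 14404 ± 1972 scaled CPM in SVEC4-10. Among the libraries of SVEC4-10, replicate 2 had the highest level of its line for 32 of the 36 constitutive members on the TMM scale and for 29 on the deposited CPM. That library also had the lowest TMM factor, 0.917. In 2H-11 the highest library was replicate 1 for 18 members, replicate 2 for 4 and replicate 3 for 14. The median coefficient of variation of a constitutive member was 6.49% in 2H-11 and 14.9% in SVEC4-10. Libraries of the lines did not overlap for 16 of the 41 members tested, against 47.9% of all genes. The libraries of 2H-11 were above for 6 members and below for 10, against 25.1% and 22.8% of all genes.

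Other genes of the proteasome pathway lie outside the symbol rule. Of a list of 30 such genes for assembly, regulation, shuttling and ubiquitin supply, 29 were tested, and 4 were lower and 1 was higher in 2H-11; Paaf1 was not analysed here. These shares, 13.8% and 3.45%, were not above the 16.2% and 20.1% of all genes. None of the 5 assembly chaperones passed in edgeR, namely Psmg1 to Psmg4 and Pomp, whose log2 fold changes ran from -0.12 to 0.43. Of these 1, Psmg2, had an unadjusted p under 0.05, and DESeq2 called 0. Vcp, the segregase that extracts ubiquitin-tagged proteins, was 2.11-fold lower, at 122 ± 5.11 scaled CPM in 2H-11 and 257 ± 11.3 scaled CPM in SVEC4-10 (adjusted p = 3.14e-05). Ngly1, the glycanase that activates the proteasome gene regulator Nfe2l1, was 2.16-fold lower, at 6.87 ± 0.271 scaled CPM in 2H-11 and 14.7 ± 1.58 scaled CPM in SVEC4-10 (adjusted p = 0.00219). Nfe2l1 itself was not called (log2 fold change -0.23, adjusted p = 0.382). Nub1, an interferon-inducible adaptor that delivers NEDD8 and its conjugates to the proteasome, was 1.74-fold lower, at 42.2 ± 4.28 scaled CPM in 2H-11 and 73.5 ± 2.27 scaled CPM in SVEC4-10 (adjusted p = 0.00224). Ubb, a polyubiquitin gene, was 1.59-fold lower, at 1891 ± 89.7 scaled CPM in 2H-11 and 3009 ± 491 scaled CPM in SVEC4-10 (adjusted p = 0.00247). It holds repeats of near-identical sequence, so its reads could be shared with other genes. Txnl1, a thioredoxin bound to the cap, was 1.43-fold higher (adjusted p = 0.0355), a call lost in 7 of 14 alternatives, among them DESeq2 (adjusted p = 0.102).

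Interferon regulators that act on the inducible subunits were read beside them. Stat2 and Irf9, which act together in the response to type I interferon, were 6.87-fold and 11.4-fold lower in 2H-11 (adjusted p = 1.6e-07 and 4.57e-10). Stat2 averaged 9.001 ± 2.86 scaled CPM in 2H-11 and 61.2 ± 13.4 scaled CPM in SVEC4-10. Irf9 averaged 7.73 ± 0.289 scaled CPM in 2H-11 and 88.8 ± 8.61 scaled CPM in SVEC4-10, and the lines did not overlap for either gene. The Irf9 gene lies near Psme1 and Psme2 on chromosome 14 (55603571 to 55610030). Irf1, a factor known in human cells to act on the promoter shared by the Psmb9 and Tap1 genes, was not called, at 38.1 ± 5.75 scaled CPM in 2H-11 and 41.1 ± 1.53 scaled CPM in SVEC4-10 (log2 fold change -0.11, 95% interval -0.52 to 0.31, adjusted p = 0.717). Nlrc5, a transactivator of class I genes, had too few counts for the test, at 0.587 ± 0.209 scaled CPM in 2H-11 and 1.54 ± 0.236 scaled CPM in SVEC4-10, with no overlap.

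The authors' deposited table held DESeq2 values for 41 members. At limits of an adjusted p under 0.01 and a 2-fold change, applied to those values, 4 members were lower in 2H-11 and 0 were higher. The 4 were Psmb9, Psme1, Psme2 and Psmd6. Of the 16107 genes with an adjusted p in the authors' deposited table, 7.46% were lower and 11.5% were higher. Psmb8 had a log2 fold change of -0.15 and an adjusted p of 0.695 in the authors' deposited table.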

How the data were processed

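Direct RNA libraries of 2H-11 and SVEC4-10 (3 each) were prepared with the Oxford Nanopore kit SQK-RNA002, per the labels' protocols. The sample descriptions say Iso-Seq instead, and the protocols were followed here. Genome builds mm10 and GRCm38 are named in the submitters' processing notes. No aligner, counter, annotation or strand setting is named in those labels. The authors deposited raw read counts per gene and the same counts as CPM, and DESeq2 fold changes with adjusted p-values, whose sign, read from the CPM, is positive where 2H-11 is higher. Dropping 13 malformed lines without a gene name left 34724 genes. Counts were tested with edgeR 4.0.16 in R 4.3.3: filterByExpr (minimum count 10, minimum total 15), TMM scaling, and the quasi-likelihood test with line as the only term, adjusted by Benjamini-Hochberg over 13187 genes. The biological coefficient of variation was 20.2%. Confidence intervals (95%) of fold changes use the test's SE. The procedure was tested on simulated data. Ratios of counts were compared with exact two-sided permutation tests (scipy 1.17.1, 0.5 added to each count).

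Gene positions are those of GENCODE M21 (GRCm38), which holds all 43 identifiers, and promoter windows from RefSeq (GRCm38.p6). Reads of processed copies could not be separated, and GENCODE names 4 such copies, of Psmb5, Psmb6 and Psmb7. Members, lists and rules were chosen with earlier results of these data known. Library values are given for the inducible members, their counterparts, Psme3, Psme4, Psma8, Psmb11 and further members past the threshold, and each ring or cap group is represented by its extremes in log2 fold change. Members named for an alternative, Psmd5 and Psmd13, and promoter matches were named after their values were seen. Alternatives were a replicate block, DESeq2 1.42.0, RLE size factors, library size alone, keeping all genes or those with 20 counts in 3 libraries, Ensembl genes only, thinning to the smallest library, other pseudocounts and leaving out each library. Some genes of the comparison lists are not reported here.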

Additional observations from a re-analysis of the deposited data

How the results depend on the processing

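The number of members lower in 2H-11 was 7 to 9 over the other alternatives and 6 to 9 when single libraries were left out, and the number of inducible members lower was 4, and 3 to 4 when single libraries were left out. Over all genes, 3117 of 26293 were lower without a filter, where 9 members were. Without 2H-11 replicate 2, where 6 members were lower, 1754 of 14243 genes were. The number higher was less firm: 3 with a filter of 20 counts in 3 libraries, 6 on Ensembl genes only, 6 with library size alone, 3 after thinning, and 0 to 2 when single libraries were left out (0 without 2H-11 replicate 1, 2 without 2H-11 replicate 3). Among all genes, 2163 of 11194 were higher with that filter, 1657 of 10170 on Ensembl genes only and 2947 of 13187 with library size alone. After thinning 2334 of 12202 genes were higher. The counts were 2929 of 13634 without 2H-11 replicate 1 and 2281 of 13218 without 2H-11 replicate 3. DESeq2 called 2709 of 21277 genes higher, and 3854 of 26293 were higher without a filter. Library size alone moved all genes by 0.09 and Ensembl genes only by 0.10 on the log2 scale. Among other proteasome genes the number higher was 2 with the filter of 20 counts, 0 with DESeq2, 4 on Ensembl genes only, 4 with library size alone, 0 without a filter, 2 after thinning, and 0 to 2 when single libraries were left out; the number lower was 4 to 5. Psmb7, never called, turned to -0.023 with DESeq2 and -0.030 without a filter, and ran from -0.095 to 0.15 when single libraries were left out, as Psmc3 did from -0.017 to 0.11. The cause was not tested. Same-numbered libraries had correlations of deviations of -0.018, 0.051 and -0.0026, against -0.078 to 0.071 for libraries of different numbers. With 3 libraries per line, these values cannot show whether the numbers mark pairs. With a replicate block 1 member was higher and 7 were lower, as without it. The ratio differences kept their sign under each pseudocount and left-out library, but that of Psmb8 to Psmb5 ran from 0.13 to 0.49. In 2H-11, depth limits Psmb9, which had at most 33 counts in a library.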
